A study of Mus musculus with 48 samples.

Results

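The Slc39 family (also called ZIP proteins) comprises the membrane transporters that carry zinc into the cytosol, from outside the cell or from its vesicles. The 10 members described here were *Slc39a1*, *Slc39a3*, *Slc39a4*, *Slc39a5*, *Slc39a6*, *Slc39a7*, *Slc39a8*, *Slc39a10*, *Slc39a13* and *Slc39a14*, measured with every probe whose RefSeq accession maps to one of these symbols. That gave 13 probes of the 41174 on the array, or 10 of the 18434 genes named. *Slc39a8*, *Slc39a13* and *Slc39a14* had 2 probes each, and the probe with the brighter mean signal stands for the gene. The genes were chosen by the liver values of a zinc transporter set in HH against LH and in HH against HL. The members' values in those comparisons, and in LH against HL, which is the difference between them, are therefore a description, with no test. The remaining diet comparisons and liver against colon were tested.

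RNA of liver and colon tissue was taken from C57/BL6 offspring, described as male in the methods, at 12 weeks of age. All dams and offspring ate the same high-fat base diet with either high (H) or marginally low (L) selenium and folate, and both diets carried the same zinc source. The first letter of a group is the diet of the dam from before mating to weaning, and the second the diet of the offspring after weaning. The groups were thus HH (high throughout), HL (high, then low), LH (low, then high) and LL (low throughout). Colon values came from 6 mice of each group, and liver values from 6 mice of each group except HH, where 2 arrays carried the same mouse and were averaged, leaving 5. Each array compared a mouse, labelled with Cy3, with a common reference, labelled with Cy5, and values are log2 ratios of mouse over reference. The reference is given as pooled intestinal and liver RNA in the methods and as RNA of a whole pregnant mouse with foetus in the deposited description, so a ratio has no absolute scale.

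Zinc is a structural or catalytic part of many proteins, and its cytosolic level is set by Slc39 importers, Slc30 exporters and the metallothioneins that bind it. *Slc39a4* is the transporter of dietary zinc at the apical face of enterocytes, and *Slc39a5* lies at the basolateral face of gut epithelium and pancreatic acinar cells. *Slc39a14* brings zinc, non-transferrin-bound iron and manganese into hepatocytes, and is raised by inflammation. *Slc39a8* is its closest relative and carries the same metals. *Slc39a7* releases zinc from the endoplasmic reticulum, *Slc39a13* from vesicles and the Golgi. *Slc39a6* and *Slc39a10* are relatives of the LIV-1 subfamily, and *Slc39a1* and *Slc39a3* are plasma membrane importers of wide expression.

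The arrays had 55.1 to 66.0% of spots well above background in Cy3 in the liver and 66.8 to 73.7% in the colon. Markers fitted the tissue labels: 6 of 6 hepatocyte genes were called higher in liver, and 7 of 7 colon epithelium and 5 of 5 smooth muscle genes higher in colon. *Xist*, which marks female cells, lay more than 2 log2 units above the tissue median in 2 livers (HL replicate 2 and LL replicate 6) and 6 colons. These colons were HH replicates 1 and 5, HL replicate 5 and LL replicates 1, 3 and 5, with none in LH, so they were uneven over the diets. In the liver of HL replicate 1 the mean log2 ratio of 6 pancreatic acinar genes was 1.16, against -2.72 to -1.74 in the other 22 livers. In the colon of LL replicate 4 the mean of 6 leukocyte genes was 1.40, with *Ptprc* at 3.25 and *Marco* at 4.67, against -0.97 to -0.58 in the other colons. All 13 probes were well above background on all 48 arrays, except the dimmer *Slc39a8* probe, which was so on 21 of 24 liver arrays, and none was saturated.

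The promoter windows below are shown because *Slc39a1* and *Slc39a7* had the largest positive differences of LH from HH in the liver, and because *Slc39a5* and *Slc39a13* were the members with letters known from endoplasmic reticulum stress. Sequences are from RefSeq (GRCm38.p6), 250 bases before to 50 after a transcript start, and 7 of the 10 members had one or more (10 windows). *Slc39a4*, *Slc39a6* and *Slc39a14* had none. Capitals mark TGACGTGG, the core of the unfolded protein response element, and TGCACNC, a core of the metal response element bound by Mtf1.
Slc39a1, chr3:90247942-90248241, plus strand: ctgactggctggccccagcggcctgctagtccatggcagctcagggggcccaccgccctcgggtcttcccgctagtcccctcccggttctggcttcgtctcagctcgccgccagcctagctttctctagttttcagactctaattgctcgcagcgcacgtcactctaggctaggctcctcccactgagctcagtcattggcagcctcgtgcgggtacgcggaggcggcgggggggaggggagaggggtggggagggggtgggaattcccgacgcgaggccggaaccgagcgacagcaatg
Slc39a7, chr17:34031641-34031940, minus strand: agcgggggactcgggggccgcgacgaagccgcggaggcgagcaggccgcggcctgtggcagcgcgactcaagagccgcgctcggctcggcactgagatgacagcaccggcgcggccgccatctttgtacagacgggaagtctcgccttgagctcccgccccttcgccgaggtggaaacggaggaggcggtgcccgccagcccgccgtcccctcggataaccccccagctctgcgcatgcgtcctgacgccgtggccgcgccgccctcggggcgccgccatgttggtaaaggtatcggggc
Slc39a5, chr10:128400417-128400716, minus strand: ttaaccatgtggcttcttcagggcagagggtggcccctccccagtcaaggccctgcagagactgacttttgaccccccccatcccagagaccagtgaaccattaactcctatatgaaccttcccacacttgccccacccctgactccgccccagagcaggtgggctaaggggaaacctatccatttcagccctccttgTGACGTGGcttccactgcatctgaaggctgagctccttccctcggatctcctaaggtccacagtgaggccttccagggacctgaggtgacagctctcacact
Slc39a13, chr2:91070266-91070565, minus strand: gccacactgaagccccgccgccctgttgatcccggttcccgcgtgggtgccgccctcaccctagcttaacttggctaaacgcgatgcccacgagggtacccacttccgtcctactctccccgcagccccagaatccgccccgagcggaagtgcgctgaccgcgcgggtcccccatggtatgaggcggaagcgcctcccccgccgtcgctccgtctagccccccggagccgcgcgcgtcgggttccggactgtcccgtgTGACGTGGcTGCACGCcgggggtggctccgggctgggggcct
On both strands, TGACGTGG was in 2 of the 10 member windows (the first of *Slc39a5* and that of *Slc39a13*) and in 0.676% of 32851 windows of all genes. TGCACNC was in 4 member windows (*Slc39a3*, the second of *Slc39a5*, the second of *Slc39a8* and *Slc39a13*) and in 12.6% of all windows, and TGCGCNC in 0 member windows and 15.4% of all. Neither the longer stress element of endoplasmic reticulum chaperone genes (0.119% of all), whose last letters overlap the reverse complement of TGACGTGG, nor TTGCATCA, a site of Atf4 (0.895%), was in a member window. The *Slc39a1* and *Slc39a7* windows, on chromosomes 3 and 17, held none of these letters.

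Liver and colon differed most in *Slc39a5*, *Slc39a4* and *Slc39a14*. *Slc39a5* and *Slc39a4* were 4.01-fold and 3.74-fold higher in colon, *Slc39a6* 2.43-fold and *Slc39a3* 1.97-fold, whereas *Slc39a14* was 2.91-fold higher in liver. The mouse values of the tissues did not overlap for any of these 5 genes, as was the case for 23.2% of all probes. At a fold over 1.5 with adjusted p under 0.05 in limma over all probes, 4 of 10 members were called higher in colon and 1 higher in liver. Of all 41171 probes tested, 15.7% were called higher in colon and 14.6% higher in liver (30.3% together), and the median difference was -0.01 against 0.47 for the 10 members.

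**Figure D1:**
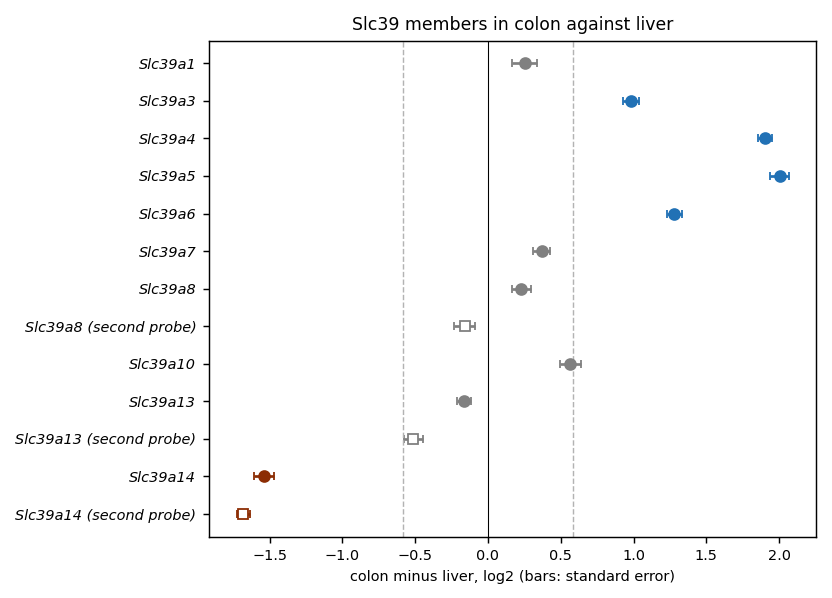
Colon minus liver of each member probe on the log2 scale (47 values, mean of 4 diet groups per tissue). Points are estimates and bars standard errors, filled circles the probe that stands for a gene and open squares a second probe, dashed lines the 1.5-fold limits, blue called higher in colon, brown called higher in liver. *Slc39a5* and *Slc39a4* lie farthest to the right, and both *Slc39a14* probes lie to the left near -1.54 and -1.68. The side of *Slc39a1* turns with the Cy3 channel alone, and that of *Slc39a13* and of the second *Slc39a8* probe turns with median centring.

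*Slc39a4*, the dietary zinc importer (chr15:76612383-76618506, GRCm38.p6), had a lowest, median and highest log2 ratio of -0.96, -0.60 and -0.13 over 23 livers and of 1.09, 1.31 and 1.53 over 24 colons. The gap between the tissues was 1.90 ± 0.048 (SE; adjusted p = 4.43e-34), while the SD between mice was 0.20 in liver and 0.11 in colon. Its spot was bright in both tissues, with a mean log2 Cy3 signal of 13.45 in liver and 16.67 in colon (24 arrays each), and without the reference (Cy3 channel alone) the gap was 3.00.

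*Slc39a5* (chr10:128395927-128401276) ranged from -1.52 to -0.72 in liver (median -1.20) and from 0.24 to 1.20 in colon (median 0.83). The gap was 2.00 ± 0.063 (SE; adjusted p = 2.41e-30). Its liver signal was dim, at a mean log2 Cy3 of 6.65, and with background-subtracted processed signals the gap was 2.91. The lowest colon value, 0.24, was that of LL replicate 4, the colon with high leukocyte markers, where the next value of the group was 0.79. Without that mouse the gap was 2.03.

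*Slc39a14* (chr14:70303467-70351452) was the member called higher in liver. The brighter probe ranged from 0.56 to 1.28 in liver and from -1.08 to 0.04 in colon, and the dimmer from 0.87 to 1.55 and from -0.82 to -0.10. Their differences were -1.54 ± 0.067 and -1.68 ± 0.047 (SE; adjusted p = 8.02e-25 and 3.70e-32), so the probes gave the same side and size.

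*Slc39a6*, a LIV-1 importer, was 1.28 ± 0.054 higher in colon (SE; adjusted p = 2.22e-25), with liver values of -1.87 to -0.98 and colon values of -0.57 to 0.12. Its relative *Slc39a10* was 0.56 ± 0.072 higher (adjusted p = 2.08e-09), just short of the 1.5-fold limit at 1.48-fold, and the tissues overlapped. Without mice high in *Xist* it passed, at 0.63, and without the liver of LL replicate 6 alone it was 0.60. *Slc39a3* was 0.98 ± 0.053 higher in colon (adjusted p = 2.50e-21), with liver values of -0.87 to 0.083 and colon values of 0.17 to 0.73. The liver value of 0.083 was that of LL replicate 6, and the next liver value of its group was -0.53.

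The other 4 genes had adjusted p-values under 0.05 but less than 1.5-fold differences, and 69.6% of all probes had such an adjusted p. *Slc39a7* was 0.37 ± 0.058 higher in colon (adjusted p = 2.19e-07), and 0.79 with median centring. *Slc39a1* was 0.25 ± 0.085 higher in colon (adjusted p = 0.00775), but 0.17 lower with the Cy3 channel alone. The *Slc39a8* probes disagreed in sign, at 0.23 ± 0.066 and -0.16 ± 0.074 (adjusted p = 0.00192 and 0.0497), and correlated across mice at only 0.28 in liver and 0.40 in colon. Both *Slc39a13* probes were lower in colon, at -0.16 ± 0.047 and -0.51 ± 0.066 (adjusted p = 0.00177 and 2.46e-09), but higher with median centring. Each slide held 1 tissue, and liver and colon slides were scanned on different days, so tissue and scan day cannot be told apart. In whole tissue, fewer cells of a type and less RNA per cell cannot be told apart either.

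Other genes of zinc handling differed between the tissues in both directions. Of the 4 remaining importers on the array, *Slc39a11* (1.44 ± 0.069, SE) and *Slc39a9* (0.79 ± 0.10) were called higher in colon, *Slc39a2* was -0.57 ± 0.048, and *Slc39a12* was above background on 1 of 48 arrays. Of 9 zinc exporters measured, *Slc30a4* (1.15) and *Slc30a7* (0.73) were called higher in colon and *Slc30a9* (-0.80) higher in liver. Of the 5 zinc-buffering genes, *Mt1* (1.498) and *Mt2* (1.74), the metallothioneins that store zinc, were called higher in colon. Among 5 genes of iron and manganese transport, *Slc11a2*, which takes up ferrous iron, was called higher in colon (1.19) and the hormone *Hamp* higher in liver (-4.52). *Slc30a10*, a manganese exporter in both lists, was 0.05 ± 0.11.

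Between HH and LH livers, that is with a low diet of the dam and a high diet after weaning, *Slc39a1* and *Slc39a7* stood higher and *Slc39a6* lower in LH, by 0.34 to 0.45 on the log2 scale. By the probes that stand for them, the other 7 genes were at most 0.20 from 0, but the dimmer *Slc39a14* probe was 0.35 higher in LH. No member and no probe of the array was called in this comparison (0% of 41171), while 12% of all probes had an unadjusted p under 0.05. The median over the 10 members was 0.04, against -0.01 for all probes, with 6 members above 0 where 47.2% of all probes were.

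**Figure D2:**
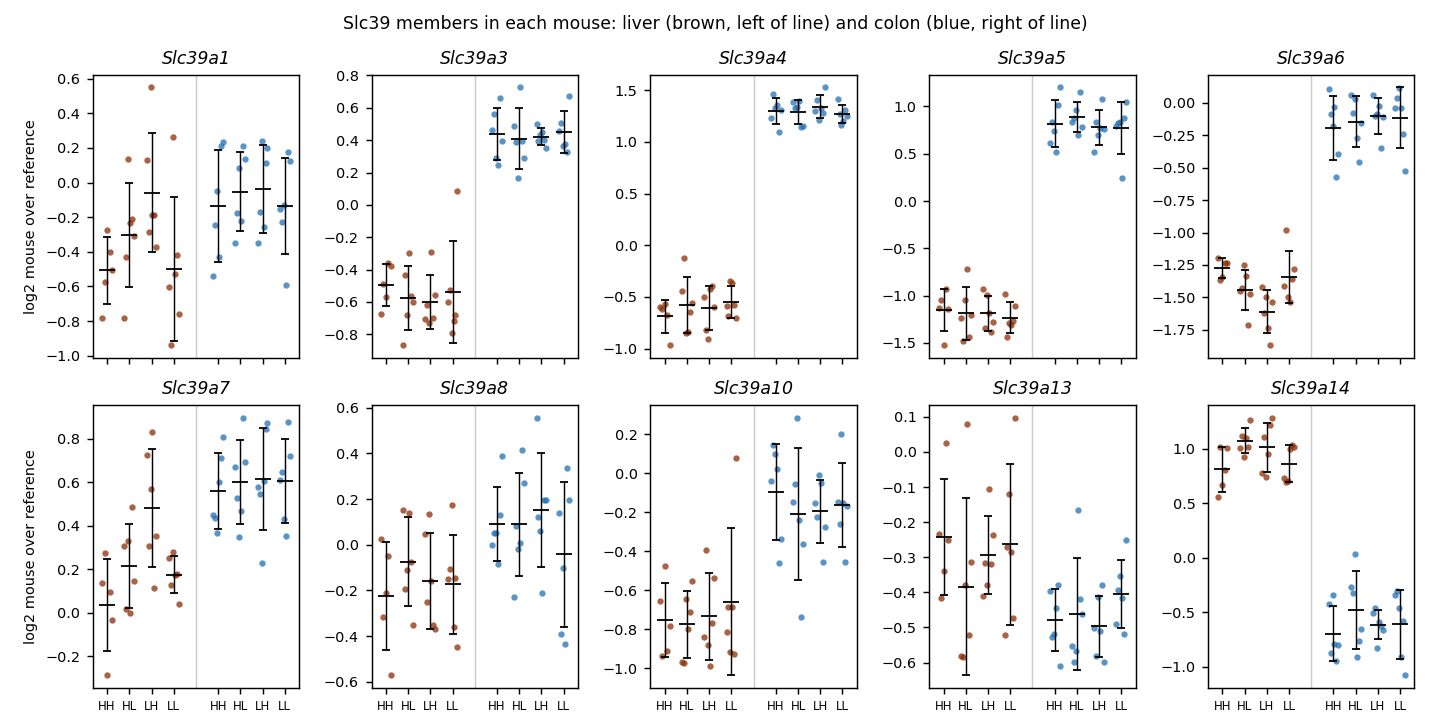
Log2 ratio of mouse over reference of each member in each mouse, by diet group, in liver (brown, left) and colon (blue, right). Points are mice (5 for liver HH, 6 for every other group), horizontal ticks group means and bars SD, and each panel has its own scale. Liver and colon are apart in *Slc39a3*, *Slc39a4*, *Slc39a5*, *Slc39a6* and *Slc39a14*, and LH livers sit low in *Slc39a6* and high in *Slc39a7*.

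*Slc39a7*, which lets zinc out of the endoplasmic reticulum, read 0.14, 0.27, -0.29, 0.09 and -0.03 in the 5 HH livers. The lowest, median and highest values were 0.12, 0.46 and 0.83 in LH, -0.00 (HL replicate 4), 0.23 and 0.49 in HL, and 0.04, 0.18 and 0.28 in LL. The groups ran in the order HH (mean 0.04 ± 0.21 SD), LL (0.17 ± 0.086), HL (0.21 ± 0.19) and LH (0.48 ± 0.27). LH stood 0.45 ± 0.12 (SE; 95% interval 0.20 to 0.69) above HH, with 6 of 6 slides above 0 and overlapping mice. Of these 6 slides, 2 carry the same HH mouse (replicate 3, the lowest HH value of *Slc39a7* at -0.29), here and in every slide count against HH, so they stand for 5 HH mice. HL stood 0.18 ± 0.12 above HH, and the values of HH, LL and HL overlapped.

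*Slc39a1* read -0.78, -0.57, -0.27, -0.40 and -0.51 in the HH livers. The lowest, median and highest values were -0.37, -0.19 and 0.55 in LH, -0.78, -0.27 and 0.13 in HL, and -0.94, -0.57 and 0.27 in LL. LH stood 0.45 ± 0.19 (95% interval 0.06 to 0.83) above HH, on 5 of 6 slides (5 HH mice), and the groups overlapped. The LH mean of -0.06 rested in part on replicate 3, at 0.55. Without that mouse the difference was 0.33. Replicate 3 was also the highest value in each other diet group, and these mice share a slide. The mean of that slide was 0.18, against -0.56 to -0.33 on the other liver slides. HL stood 0.20 ± 0.19 above HH.

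*Slc39a6* read -1.20, -1.37, -1.34, -1.23 and -1.23 in the HH livers, a narrow range, and all 6 LH livers lay below, at -1.87 to -1.42 (median -1.58). The values were -1.71 to -1.25 (median -1.44) in HL and -1.53 to -0.98 (median -1.39) in LL. LH stood below HH with a log2 difference of -0.34 ± 0.096 (95% interval -0.54 to -0.14), on 6 of 6 slides (5 HH mice). Groups apart in this way were seen in 0.843% of all probes. HL minus HH was -0.17 ± 0.096, but -0.01 with the local background left as deposited, a setting that compresses 3 of these livers.

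*Slc39a14*, the hepatic importer of zinc and iron, had its lowest mean in HH with both probes, which ordered the other groups differently. The brighter probe had means of 0.81 (HH), 0.86 (LL), 1.01 (LH) and 1.07 (HL), and the dimmer of 0.92 (HH), 1.14 (LL), 1.15 (HL) and 1.27 (LH). The brighter probe read 0.56, 1.01, 0.67, 0.81 and 1.01 in HH, with medians of 1.06 in HL, 1.03 in LH and 0.87 in LL. HL minus HH was 0.26 ± 0.11 (95% interval 0.04 to 0.48) and LH minus HH 0.20 ± 0.11 (-0.02 to 0.43), with 6 of 6 slides above 0 in both (5 HH mice). The dimmer probe read 0.87, 0.98, 0.94, 0.95 and 0.87 in HH, and all LH livers were above that range, at 1.11 to 1.55, a difference of 0.35 ± 0.086 (0.17 to 0.53). Groups apart upward were seen in 0.697% of all probes in this comparison. HL minus HH was 0.23 ± 0.086 for this probe.

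For the probes that stand for the remaining members, LH minus HH was -0.10 ± 0.13 for *Slc39a3*, 0.08 ± 0.12 for *Slc39a4*, -0.03 ± 0.13 for *Slc39a5*, 0.07 ± 0.12 for *Slc39a8*, 0.02 ± 0.15 for *Slc39a10* and -0.05 ± 0.12 for *Slc39a13*. HL minus HH lay between -0.14 and 0.15 for the same 6 probes. The dimmer *Slc39a8* probe, which was not above background on every liver array, gave 0.16 ± 0.14 in LH minus HH and 0.25 ± 0.14 in HL minus HH, but 0.60 and 0.61 with background-subtracted processed signals. In HL minus HH, 0 probes of the array were called (0%), and 4.38% of all probes had an unadjusted p under 0.05. *Slc39a4* in the liver of HL replicate 2, high in *Xist*, was the highest liver value (-0.13), and HL minus HH was 0.11 with it and 0.02 without it. Marker levels differed as well. Between HH and LH the 6 hepatocyte genes had a median difference of 0.28 (6 above 0), the 6 leukocyte genes -0.39 (4 below 0) and the 7 endoplasmic reticulum stress genes 0.68 (5 above 0). The mean log2 ratio of the hepatocyte genes was 1.46 to 1.80 in HH and 1.73 to 2.17 in LH livers, that of the leukocyte genes 0.86 to 1.61 and 0.51 to 1.14, and that of the stress genes 0.00 to 0.55 and 0.55 to 0.84. Their part in the differences of the members was not tested.

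**Figure D3:**
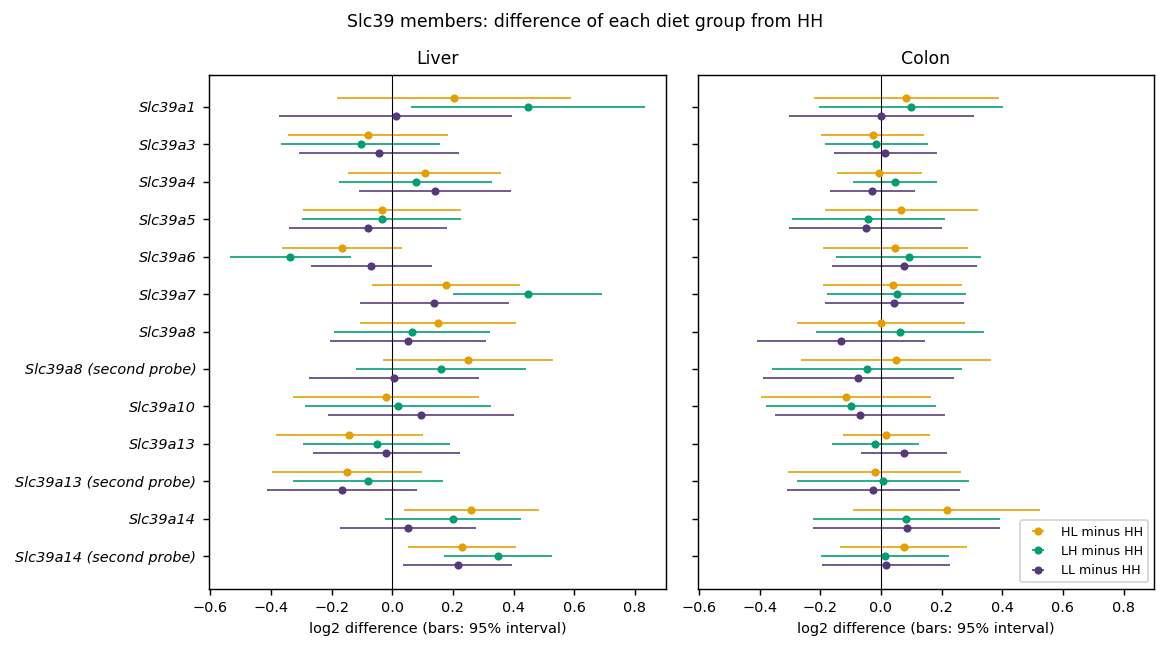
Difference of HL, LH and LL from HH for each member probe on the log2 scale, in liver (left) and colon (right). Points are limma estimates and bars 95% intervals, from 5 HH and 6 other mice per group in liver and 6 per group in colon. The liver LH and HL points come from the comparisons that chose the genes and are a description, and their intervals are no test. Among them the LH points of *Slc39a1* and *Slc39a7* lie farthest right (0.45 both) and that of *Slc39a6* farthest left (-0.34). All colon intervals include 0, and whether liver and colon differ in this was not tested.

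Between LH and LL, which share the low diet of the dam and differ after weaning, the genes that stood out above were nearer their HH level in LL. This comparison was not used to choose the genes, but shares the LH mice with the one that was. The genes named here stood out by their LH values, and that pick favours a difference back toward HH. Their p-values and slide counts here are therefore no independent test. LL minus LH was -0.44 ± 0.18 (SE; 95% interval -0.80 to -0.07) for *Slc39a1*, -0.31 ± 0.11 (-0.54 to -0.07) for *Slc39a7* and 0.27 ± 0.092 (0.08 to 0.46) for *Slc39a6*, each at an unadjusted p under 0.05. None passed the adjustment over all probes (limma adjusted p = 0.768 for each), and 0 of 41171 probes did (0%), with 6.38% at an unadjusted p under 0.05. By slide, *Slc39a1* was lower in LL on 6 of 6 slides, *Slc39a7* on 5 of 6, and *Slc39a6* higher on 5 of 6.

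LH minus HL, given with no test, was 0.27 ± 0.11 for *Slc39a7* (95% interval 0.04 to 0.50), and 1.74% of all probes had an unadjusted p under 0.05 in it. The other tested liver comparisons gave 1 further value at an unadjusted p under 0.05, from a comparison that shares the HH mice with those that chose the genes. The dimmer *Slc39a14* probe was 0.22 ± 0.086 higher in LL than in HH, with no overlap of the groups (limma adjusted p = 1.00), where the brighter probe gave 0.05 ± 0.11. The groups of the dimmer probe were only narrowly apart, with a highest HH value of 0.978 and a lowest LL value of 0.984. Its HH values had an SD of 0.049. In LL minus HH 3.45% of all probes had an unadjusted p under 0.05 and 0.0802% had LL apart above HH. Between HL and LL no member probe had an unadjusted p under 0.05 (3.08% of all probes did). Over the 3 tested liver comparisons, 4 of 39 values had an unadjusted p under 0.05 and 0 were called, and differences lay between -0.44 and 0.27. The shares of all probes at that p were 3.45% (LL minus HH), 3.08% (LL minus HL) and 6.38% (LL minus LH). Each of these comparisons shares mice with those that chose the genes, so the count is not independent of that choice.

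Of the 18 other zinc genes measured (importers, exporters and buffering genes), none was called by diet. At an unadjusted p under 0.05 lay 2 of the 18 in LL minus LH livers, where 6.38% of all probes did. *Mt1* was 1.00 ± 0.38 (SE) higher in LL than in LH livers and *Slc39a11* gave -0.38 ± 0.16, both at a limma adjusted p of 0.768. In the colon 1 of the 18 lay at that limit in LH minus HH (*Slc30a8*, -0.15 ± 0.069), where 3.24% of all probes did, and 1 in LL minus HH (*Slc39a12*, 0.18 ± 0.069), where 1.72% did, both at a limma adjusted p of 1.00. *Slc30a8* was well above background on 0 of 48 arrays and *Slc39a12* on 1. In LH minus HH the medians, given with no test since exporters were part of the set, were 0.15 for the 4 other importers, 0.14 for 9 exporters and -0.27 for the 5 buffering genes, against -0.01 for all probes.

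In the colon no member was called in a diet comparison. Over the 6 comparisons, 0 of 78 values had an unadjusted p under 0.05, and the lowest was 0.158 (*Slc39a8*, LL minus LH, -0.20 ± 0.13 SE). At that limit lay 3.24% of all probes for LH minus HH, 1.46% for HL minus HH, 1.72% for LL minus HH, 2.95% for LH minus HL, 1.02% for LL minus HL and 2.8% for LL minus LH, and no probe of the array was called (0%). The highest difference was 0.22 ± 0.15 for *Slc39a14* in HL minus HH (95% interval -0.09 to 0.52, unadjusted p = 0.160). All differences lay between -0.20 and 0.22, and the widest intervals reached -0.47 and 0.52. For the genes with the largest differences between HH and LH in the liver, LH minus HH in the colon was 0.05 for *Slc39a7*, 0.10 for *Slc39a1*, 0.09 for *Slc39a6* and 0.01 for the dimmer *Slc39a14* probe. Whether liver and colon differ in this respect was not tested, since the liver comparison helped choose the genes.

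*Slc39a4* in the colon had means of 1.30 (HH), 1.29 (HL), 1.34 (LH) and 1.27 (LL) and SDs of 0.087 to 0.13. LL minus HH was -0.03, and the 95% interval of -0.17 to 0.11 leaves differences of that size open. *Slc39a5* had means of 0.82, 0.89, 0.78 and 0.77, and *Slc39a7* of 0.56, 0.60, 0.61 and 0.61, in the same order.

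Across mice, correlations between members had both signs, and several changed once slides were taken into account. After removing group means, the highest correlation in liver was that of *Slc39a3* with *Slc39a13* (Pearson r = 0.63, 23 mice, and 0.60 in colon, 24 mice), and the lowest that of *Slc39a8* with *Slc39a14* (-0.79). With slide means removed as well, a step chosen after seeing the data, these were 0.55, 0.75 and -0.47. In colon *Slc39a1* went with *Slc39a5* (0.76, and 0.47 with slide means removed) and against *Slc39a6* (-0.69 and -0.47). *Slc39a6* with *Slc39a10* gave 0.70 and 0.26, and *Slc39a7* with *Slc39a10* -0.79 and -0.02, so that this last relation was not seen within slides. On the colon slides of replicates 5 and 6 *Slc39a7* lay at 0.69 to 0.90, and on the other 4 at 0.23 to 0.67, although each slide held all 4 diets. These mice share slides and dissection, so the values are descriptions. The mean log2 ratio of the colon epithelium genes correlated in colon with *Slc39a1* (0.76, and 0.28 with slide means removed), *Slc39a5* (0.70 and 0.47) and *Slc39a7* (0.59 and 0.62). That of the hepatocyte genes correlated in liver with *Slc39a14* (0.60 and 0.47), *Slc39a8* (-0.74 and -0.63) and *Slc39a6* (-0.55 and -0.71). For *Slc39a5* these values were -0.52 and -0.33, and for *Slc39a4* 0.32 and 0.49. *Slc39a5* in liver, where its signal was dim (mean log2 Cy3 of 6.65), correlated with the colon epithelium genes (0.80 and 0.75). The mean log2 ratio of these genes was low there too, at -4.76 to -4.00. Neither the part of the marker genes nor that of a shared background was tested.

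**Figure D4:**
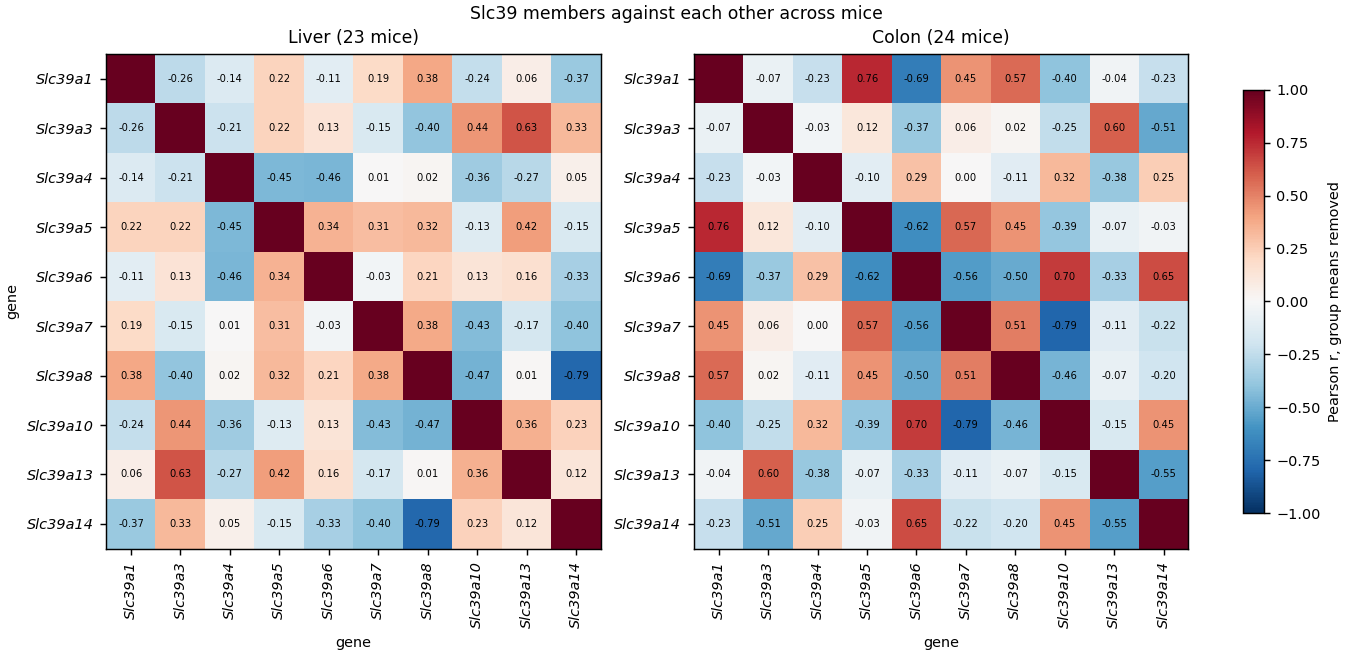
Pearson correlation between the values of each pair of members across mice, after the mean of each diet group was removed, in liver (23 mice) and colon (24 mice). Colour and the printed number give r, and the unlabelled diagonal is each gene with itself. *Slc39a8* with *Slc39a14* in liver and *Slc39a7* with *Slc39a10* in colon are the darkest blue fields at -0.79, which become -0.47 and -0.02 once slide means are removed too.

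For 3 members chosen for their roles, the genes most alike across mice were looked up among probes above background on every array (12330 genes in liver, 14301 in colon). *Slc39a7* was most like *Rpn1*, which encodes a subunit of the oligosaccharyltransferase of the endoplasmic reticulum, in liver (r = 0.82, and 0.83 without the 2 farthest mice), followed by *Ptprf* and *Aars* (0.82 both). In colon it was most like *Ddx1*, *Inppl1* and *Zfp612* (0.89, 0.89 and 0.88). *Slc39a14* was most like *Stxbp5* (0.91), *Peli2* (0.85) and *Arhgef11* (0.82) in liver, and *Slc5a1* (0.89), which encodes a sodium-glucose cotransporter, *Fbp2* (0.88) and *Tmed7* (0.87) in colon. *Slc39a4* was most like *Slco1a4* (0.81), *Gatd3a* (0.76) and *Rab43* (0.71) in liver and *Tubgcp2* (0.68), *Jpt1* (0.65) and *Plp2* (0.64) in colon. These values hold group and slide differences. As the highest of that many genes over 23 livers or 24 colons, they are also high by selection. What unrelated genes would reach was not tested. With group and slide removed, in the same mice that picked the genes, the 3 genes of *Slc39a4* gave 0.78 to 0.88 in liver and 0.75 to 0.82 in colon. Those of *Slc39a14* gave 0.55 to 0.82 and 0.78 to 0.89, and those of *Slc39a7* 0.65 to 0.77 in liver but 0.33 to 0.69 in colon. No gene was among the 3 in both tissues for any of these members.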

How the data were processed

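RNA of liver and colon was measured on 48 Agilent 2-colour arrays (45018 spots). Per the file headers the authors used Feature Extraction 10.10.1.1, and deposited scanner output with, per spot and channel, a raw median intensity, a local background and a processed intensity (background-subtracted and dye-normalized). Log2 values deposited beside it, reference over mouse and made with limma in R 3.0.2 by the submitters' notes, correlated at 0.997 to 0.999 with those used here once the sign was turned, and serve as an alternative. Here, median intensities were corrected with normexp (offset 50) and global loess in R 4.3.3 with limma 3.58.1, spots flagged as outliers left out, and spots of a probe averaged. A local background brighter than its spot was first set to the array's median background, since left as deposited it shrank the spread of 4 arrays (3 livers, HH replicate 2 and HL replicates 5 and 6, and the colon of HH replicate 1).

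Each tissue was fitted as 4 groups with lmFit and eBayes (23 liver and 24 colon mice, no block), and liver against colon as 8 groups. The methods give 6 offspring a group with both tissues taken, so liver and colon may come from the same mice. The labels do not link them, and liver against colon was fitted without pairing. P-values were adjusted over all probes (Benjamini-Hochberg). Liver LH minus HL, planned as a test, is given without one for the members, since it is the difference between the comparisons that chose them. Correlations were also computed on residuals of the arrays after group and slide, averaged per mouse. The methods were tested on simulated data. Precision is limited by 5 or 6 mice a group, and the labels do not name litters, so mice of a group may share one.

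The members, the gene lists (other importers, exporters, buffering, iron and manganese transport, acute phase, endoplasmic reticulum stress, 6 cell types) and the tests were chosen with earlier results of these data known. Named are all members, list genes called or else the 2 with the lowest p, and 3 genes most alike to *Slc39a4*, *Slc39a7* and *Slc39a14*. Of 6 acute phase genes, 2 were called higher in colon and 4 in liver, of 7 stress genes 5 in liver, of 6 acinar genes 1 in colon and 3 in liver, of 6 leukocyte genes 1 and 3, and of 2 erythroid genes measured both in liver. Alternatives were background and normalization settings, the deposited table, slide as a block, a filter on dim probes, array weights, other thresholds, all probes of a gene averaged, and mice left out.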

Additional observations from a re-analysis of the deposited data

Results flagged for a closer look

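In groups of 5 or 6 mice, the highest or lowest value of each of 13 probes was set against the rest of its group, 104 groups in all, and 5 values stood apart by Dixon's criterion, which chance alone meets in about 1 in 20 groups. In the liver of LL replicate 6, which is also high in *Xist*, *Slc39a3* was 0.083 (next value -0.53) and *Slc39a10* 0.081 (next value -0.69). In the liver of HH replicate 5, *Slc39a4* was -0.96 (next value -0.67). In the colon of LL replicate 4, which is also high in leukocyte markers, *Slc39a5* was 0.24 (next value 0.79). In the colon of HH replicate 3, the dimmer *Slc39a8* probe was 0.35 (next value -0.29).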

How the results depend on the processing

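Liver against colon called 6 of 13 member probes, between 6 and 7 with each mouse left out, but 10 with median centring and 13 with no limit on the fold, at an adjusted or an unadjusted p under 0.05. Median centring moved the median of all probes from -0.01 to -0.22 and the share of calls higher in colon from 51.8% to 42.2%. With it *Slc39a13* turned to 0.45, its second probe to 0.10 and the second *Slc39a8* probe to 0.023, while *Slc39a1* turned to -0.17 with the Cy3 channel alone. No member probe was called in any of the 12 diet comparisons under any alternative with both limits. At an unadjusted p under 0.05 with no fold there were 1 for LL minus HH, 3 for LL minus LH, and, as counts that test nothing because these comparisons chose the genes or follow from that choice, 4 for LH minus HH (12% of all probes), 2 for HL minus HH (4.38%) and 1 for LH minus HL in liver, and 0 in the colon. Over the alternatives other than leaving out mice, LH minus HH was 0.30 to 0.56 for *Slc39a7*, 0.36 to 0.61 for *Slc39a1* and -0.43 to -0.18 for *Slc39a6*. With each mouse left out, these were 0.37 to 0.52, 0.33 to 0.51 and -0.38 to -0.29. Slide as a replicate block, the slide being shared by 1 array of each group, changed no call of a member (0 called by diet and 6 by tissue), and called 5 probes of the array in LH minus HH. It was fitted to single arrays, so the HH mouse with 2 liver arrays counted as separate mice, also in these 5 calls. Aquantile leaves ratios as they are. The liver high in acinar markers was left out as an alternative chosen after seeing the data, with no call changed. Removing slide means, likewise chosen after seeing the data, took the correlation of *Slc39a7* with *Slc39a10* in colon from -0.79 to -0.02. The cause of the values that turned was not tested.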
